A study of Mus musculus with 12 samples.

Results

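The 9 genes described here, Gad1, Gad2, Slc32a1, Pvalb, Lhx6, Cck, Reln, Nxph1 and Erbb4, mark GABAergic interneurons of the hippocampus. They were chosen by name among the 33250 gene symbols of the table, and all 9 were present and passed the filter on low counts that left 19325 genes for testing. Bulk hippocampus of male mice was sequenced as polyA RNA. The labels give 6 animals as conditional knockouts (cKO), in which a Cre recombinase in Emx1-positive cells was to remove the microRNA cluster between Mir379 and Mir410, and the other 6 animals were wild type (WT). The sources used here give neither ages nor whether WT animals carried the Cre or the floxed allele. The series asks whether loss of the cluster in glutamatergic neurons alters gene expression in the hippocampus.

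Interneurons use the inhibitory transmitter GABA, which glutamate decarboxylases make from glutamate and a vesicular transporter loads into synaptic vesicles. Hippocampal interneurons arise in the ganglionic eminences of the ventral forebrain and migrate into the hippocampus, whereas Emx1 marks the dorsal progenitors of pyramidal and granule neurons and of many glia. A Cre driven by Emx1 therefore leaves the interneuron lineage unrecombined, although Cck is also expressed by the targeted excitatory neurons and Reln by Cajal-Retzius cells. In bulk tissue, fewer cells of a type and less RNA per cell cannot be told apart.

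Gad1, Gad2, Slc32a1 and Lhx6 lie on chromosome 2, which held 4 of the 9 genes and 7.63% of the genes tested that the annotation places (GRCm38). Promoters of the 9 genes were taken from RefSeq (GRCm38.p6), as 300 bases with 250 before and 50 after the annotated start, and all 9 matched with 12 windows in all. The windows of Gad1 (chr2:70561879-70562178, plus strand), Gad2 (chr2:22622077-22622376, plus), Slc32a1 (chr2:158610508-158610807, plus) and Nxph1 (chr6:8949769-8950068, plus) are printed because these genes varied together between animals. The first window of Pvalb (chr15:78206351-78206650, minus) is printed because Pvalb did not follow them. Capitals mark every match, on either strand, to the TATA-box core TATAAA, the CAAT-box core CCAAT, the GC-box core GGGCGG or the homeodomain core TAATTA.
Gad1: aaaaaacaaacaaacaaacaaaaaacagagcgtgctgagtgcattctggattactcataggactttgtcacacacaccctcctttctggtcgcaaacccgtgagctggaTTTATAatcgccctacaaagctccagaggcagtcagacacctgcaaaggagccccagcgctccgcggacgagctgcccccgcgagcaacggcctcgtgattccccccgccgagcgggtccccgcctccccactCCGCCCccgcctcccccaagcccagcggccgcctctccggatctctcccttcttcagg
Gad2: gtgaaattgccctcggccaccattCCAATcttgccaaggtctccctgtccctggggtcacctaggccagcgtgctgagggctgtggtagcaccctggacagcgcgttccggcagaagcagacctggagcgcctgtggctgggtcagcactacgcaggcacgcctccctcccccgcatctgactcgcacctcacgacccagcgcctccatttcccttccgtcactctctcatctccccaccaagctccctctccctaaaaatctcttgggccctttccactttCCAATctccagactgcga
Slc32a1: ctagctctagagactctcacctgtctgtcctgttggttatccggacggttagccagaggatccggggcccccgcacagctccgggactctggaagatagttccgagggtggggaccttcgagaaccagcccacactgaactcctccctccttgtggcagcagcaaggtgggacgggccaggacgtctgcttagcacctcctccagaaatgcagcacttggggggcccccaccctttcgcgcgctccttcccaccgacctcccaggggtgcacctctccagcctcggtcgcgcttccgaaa
Nxph1: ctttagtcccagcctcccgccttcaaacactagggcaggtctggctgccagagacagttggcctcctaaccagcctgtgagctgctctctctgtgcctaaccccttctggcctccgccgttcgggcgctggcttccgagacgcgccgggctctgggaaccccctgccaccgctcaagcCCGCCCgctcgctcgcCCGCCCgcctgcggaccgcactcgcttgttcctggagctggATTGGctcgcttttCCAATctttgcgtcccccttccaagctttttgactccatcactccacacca
Pvalb: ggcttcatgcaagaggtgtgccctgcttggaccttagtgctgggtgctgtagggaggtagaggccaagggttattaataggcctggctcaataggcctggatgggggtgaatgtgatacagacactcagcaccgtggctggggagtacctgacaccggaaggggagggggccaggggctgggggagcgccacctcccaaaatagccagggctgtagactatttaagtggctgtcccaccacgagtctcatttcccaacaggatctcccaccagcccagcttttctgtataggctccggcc

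Among all 32851 promoter windows of this length, the TATA-box core was found in 13.6%, the CAAT-box core in 37.4%, the GC-box core in 35.7% and the homeodomain core in 5.29%. The Gad1 window held 1 TATA-box and 1 GC-box core, the Gad2 window 2 CAAT-box cores, and the Nxph1 window 2 CAAT-box and 2 GC-box cores. None of the 4 motifs was in the Slc32a1 window or in the printed Pvalb window. The windows of Gad1, Gad2, Slc32a1 and Nxph1 held 14 (Gad2) to 21 (Gad1 and Nxph1) CpG pairs, beside a median of 7 over all windows. The Gad2 window held more than 63.7% of all windows, and those of Gad1 and Nxph1 more than 75.2%. Lhx6, which also varied with these genes, had windows with 16, 17 and 11 CpG pairs. The printed Pvalb window held 5 and the other Pvalb window 25. No motif was common to the windows of Gad1, Gad2, Slc32a1 and Nxph1. At the other extreme the Reln window had a GC content of 80.7%, higher than 99.2% of all windows, with 47 CpG pairs.

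Library totals ranged from 42360624 to 51095816 counts, so Gad1 rested on 12436 to 15116 counts per library and Pvalb, the thinnest of the 9, on 660 to 1242. The library labelled cKO 1 went against its label at B830012L14Rik, a long non-coding RNA gene between Meg3 and Mirg. It had 0.788 CPM (counts scaled to library size with edgeR's TMM), whereas cKO 2 to 6 had 17.4 to 25.8 CPM and WT libraries 0.310 to 0.865 CPM. At Emx1, the driver gene of the Cre, the library labelled cKO 1 had 9.14 CPM. There cKO 2 to 6 had 5.91 to 6.84 CPM and WT libraries 8.38 to 9.60 CPM. The cause was not tested, and the library was counted as cKO except where left out. The libraries cKO 4, WT 2 and WT 3 were low in choroid plexus RNA, with 28.3 to 498 CPM of its transcript Ttr beside 2222 to 7657 CPM in the other 9.

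Levels of different genes were compared as CPM per kilobase of the longest protein-coding transcript. Cck, a peptide transmitter gene that pyramidal cells also use, was the highest at 206 ± 14.4 in cKO and 211 ± 10.9 in WT (SD, n = 6 each). Gad1 followed at 86.7 ± 5.77 CPM per kilobase in cKO and 85.8 ± 5.08 in WT, and Gad2 at 25.8 ± 2.16 in cKO and 25.1 ± 1.86 in WT. These 3 ranges over the 12 libraries did not overlap. Pvalb had 20.7 ± 2.78 CPM per kilobase in cKO and 20.2 ± 3.45 in WT, and Slc32a1 19.0 ± 1.79 in cKO and 18.7 ± 1.27 in WT. Neighbours among Gad2, Pvalb and Slc32a1 overlapped. Nxph1, Reln, Lhx6 and Erbb4, in that order, formed a lower tier between 3.81 and 9.29 CPM per kilobase in single libraries, in which neighbours also overlapped. Per kilobase of all exons combined, Cck was at 126 ± 8.83 in cKO and 129 ± 6.64 in WT, and Gad1 at 38.1 ± 2.53 in cKO and 37.7 ± 2.23 in WT. The first 5 genes kept their order on that scale, while Erbb4 led the lower tier and Reln ended it.

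None of the 9 genes differed between genotypes after adjustment over all genes tested, where edgeR's quasi-likelihood test called 2 genes, or 0.0103%, both higher in cKO. None had an unadjusted p under 0.05 either, a level that 9.54% of all genes reached. In none did the cKO and WT libraries separate without overlap, as 0.404% of all genes did. Lhx6 had the largest positive difference and Erbb4 the largest negative one. The median log2 fold change of the 9 was 0.02, against 0.01 over all genes tested, with 6 of the 9 above 0 beside 53.4% of all genes. With the library labelled cKO 1 left out, log2 fold changes were 0.03 for Gad1, 0.06 for Gad2, 0.04 for Slc32a1, 0.08 for Pvalb, 0.22 for Lhx6, -0.05 for Cck, -0.12 for Reln, 0.06 for Nxph1 and -0.18 for Erbb4, and none passed in edgeR. Of the 9 only Lhx6 then had an unadjusted p under 0.05 in edgeR (0.0337), as had 2381 of the 19457 genes tested there.

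**Figure D1:**
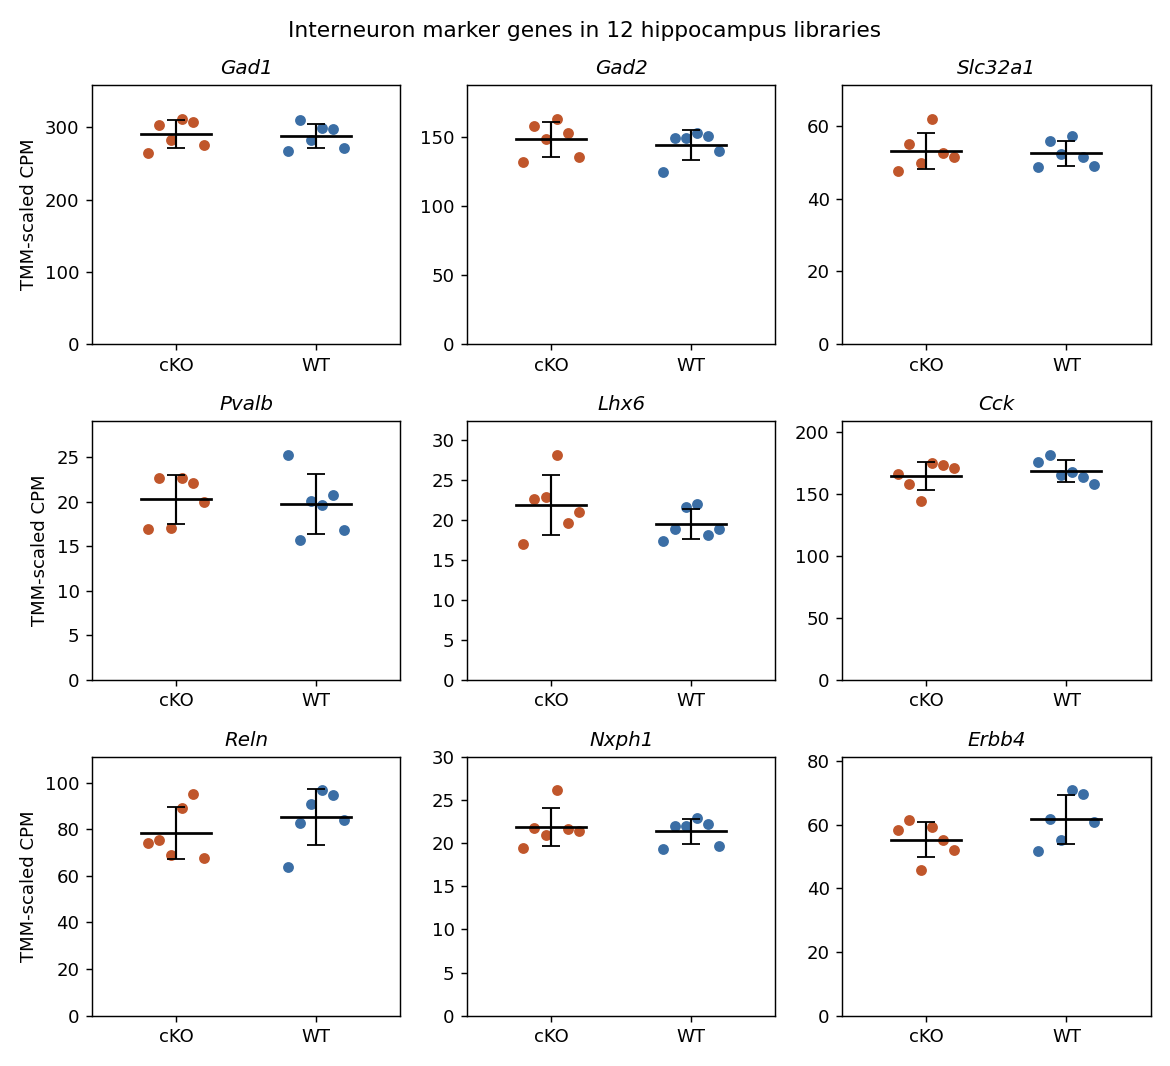
TMM-scaled CPM (vertical axis from 0) of the 9 marker genes in each of 6 cKO and 6 WT libraries (points, animals 1 to 6 from left to right), with the mean (line) and SD (bar). The groups overlap in every gene, and Erbb4 has all 6 cKO libraries below the WT median, the highest of them narrowly.

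Gad1 (chr2:70553072-70602014, plus strand) encodes the larger glutamate decarboxylase, which makes most GABA in the cell body. In cKO its lowest, median and highest libraries had 265, 293 and 312 CPM, and in WT 267, 290.3 and 310.0 CPM. The genotypes covered almost the same range, with animal 1 lowest in each. Its log2 fold change was 0.01 ± 0.05 (SE), with a 95% interval from -0.09 to 0.12 (edgeR adjusted p = 0.951).

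Gad2 (chr2:22622205-22693874, plus strand) encodes the smaller decarboxylase, which is enriched at nerve endings. It had 132, 150.4 and 163 CPM in the lowest, median and highest cKO library, and 124, 149 and 153 CPM in those of WT. The groups overlapped, with cKO 4 highest and WT 1 lowest of all. Between genotypes the log2 fold change was 0.04 ± 0.06 (SE), with a 95% interval from -0.09 to 0.17 (edgeR adjusted p = 0.892). Per kilobase of longest transcript, the Gad1 level was 3.37 ± 0.104 times that of Gad2 in cKO and 3.43 ± 0.162 times in WT (SD, n = 6 each). The size of this ratio depends on the lengths used. Per kilobase of all exons combined the means were closer, 38.1 for Gad1 and 25.2 for Gad2 in cKO, and 37.7 and 24.5 in WT.

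Slc32a1 (chr2:158610767-158615748, plus strand) encodes the vesicular GABA transporter. The cKO libraries had 47.7, 52.1 and 62.0 CPM as lowest, median and highest, and the WT libraries 48.7, 51.9 and 57.3 CPM. The WT range lay inside that of cKO, in which cKO 4 stood highest and the library labelled cKO 1 lowest. A log2 fold change of 0.02 ± 0.06 (SE) was fitted, with a 95% interval from -0.11 to 0.15 (edgeR adjusted p = 0.946). Over Gad1, Gad2 and Slc32a1 the 95% intervals of the fold lay within 0.925 to 1.12.

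Lhx6 (chr2:36081953-36105408, minus strand) encodes a LIM homeodomain factor that specifies interneurons born in the medial ganglionic eminence, among them those that make parvalbumin or somatostatin. It had 17.1, 21.8 and 28.2 CPM in the lowest, median and highest cKO library, and 17.4, 18.9 and 22.0 CPM in those of WT. In cKO 5 of 6 libraries lay above the WT median, all but the library labelled cKO 1, and the ranges overlapped. The difference was 0.17 ± 0.10 on the log2 scale (SE), with a 95% interval from -0.05 to 0.39 (edgeR adjusted p = 0.645). Without the library labelled cKO 1 the adjusted p was 0.355 in edgeR, and without cKO 4, WT 2 and WT 3 the difference was 0.11 (edgeR adjusted p = 0.834).

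Nxph1 (chr6:8948431-9249032, plus strand) encodes a secreted glycoprotein that binds alpha-neurexins. Its lowest, median and highest cKO libraries had 19.5, 21.6 and 26.1 CPM, and those of WT 19.4, 22.0 and 23.0 CPM. cKO 4 stood alone at the top and the other 11 libraries overlapped. Its fitted log2 fold change was 0.03 ± 0.07 (SE), with a 95% interval from -0.11 to 0.18 (edgeR adjusted p = 0.916).

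Erbb4 (chr1:68032186-69108059, minus strand) encodes a receptor tyrosine kinase for neuregulins that is concentrated in interneurons. The lowest, median and highest cKO libraries had 45.9, 56.8 and 61.4 CPM, and those of WT 51.6, 61.4 and 70.8 CPM. All 6 cKO libraries lay below the WT median, cKO 2 only narrowly, although WT 1, WT 3 and WT 6 lay within the cKO range. On the log2 scale cKO differed from WT by -0.16 ± 0.09 (SE), with a 95% interval from -0.34 to 0.03 (edgeR adjusted p = 0.597). With an unadjusted p of 0.0881 in edgeR, the smallest of the 9, Erbb4 ranked 2852 among all genes tested. Without WT 1 the difference was -0.21 (edgeR adjusted p = 0.265).

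Pvalb (chr15:78191114-78206400, minus strand) encodes parvalbumin, the calcium buffer of fast-spiking basket and axo-axonic cells. It had 16.9, 21.1 and 22.7 CPM in the lowest, median and highest cKO library, and 15.8, 19.9 and 25.3 CPM in those of WT. WT 1 and WT 2 held the highest and the lowest value of all 12, so the cKO range lay inside that of WT. The fit gave a log2 fold change of 0.04 ± 0.11 (SE), with a 95% interval from -0.21 to 0.28 (edgeR adjusted p = 0.945).

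Cck (chr9:121489824-121495694, minus strand) encodes cholecystokinin, which marks a class of basket cells and is also made by excitatory cells of the hippocampus. In cKO it had 145, 168 and 175 CPM as lowest, median and highest, and in WT 158, 166 and 182 CPM. The genotypes overlapped, with cKO 3 lowest and WT 2 highest. The log2 fold change, at -0.04 ± 0.05 (SE), had a 95% interval from -0.14 to 0.07 (edgeR adjusted p = 0.871).

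Reln (chr5:21884454-22344702, minus strand) encodes reelin, an extracellular protein secreted in the adult hippocampus by interneurons and by Cajal-Retzius cells, the early-born cells along the hippocampal fissure. It had 67.7, 74.6 and 95.2 CPM in the lowest, median and highest cKO library, and 63.6, 87.3 and 96.6 CPM in those of WT. In cKO 4 of 6 libraries lay below the WT median, while WT 1 was the lowest of all. Reln differed by -0.12 ± 0.11 on the log2 scale (SE), with a 95% interval from -0.35 to 0.10 (edgeR adjusted p = 0.769). Without WT 1 it was -0.20 (edgeR adjusted p = 0.316).

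**Figure D2:**
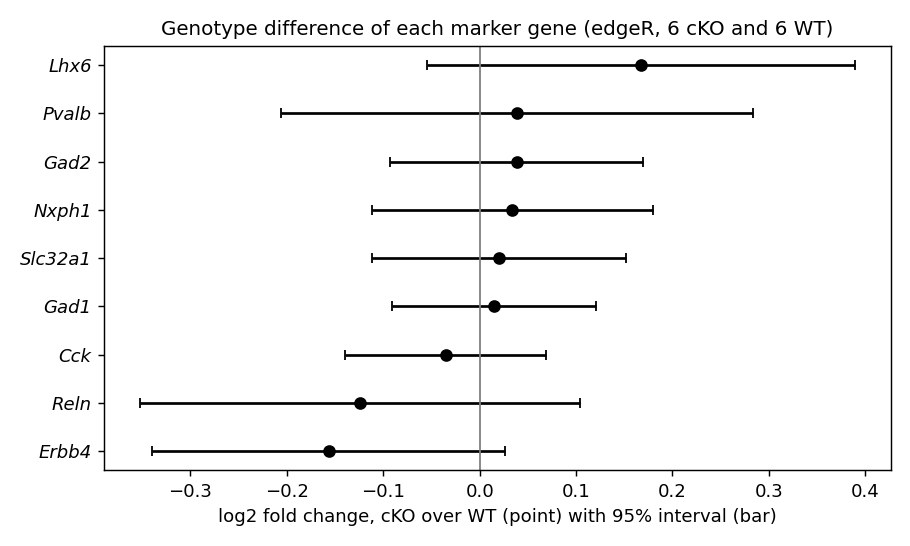
Log2 fold change of cKO over WT for each marker gene (points, horizontal axis) with its 95% interval (bars) from edgeR over 6 cKO and 6 WT libraries, ordered by value. Every interval includes 0, from Erbb4 at -0.16 to Lhx6 at 0.17.

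The 9 genes differed in how much they varied between animals. Over the 12 libraries the coefficient of variation was 6.03% for Gad1, 5.97% for Cck, 7.69% for Gad2, 7.85% for Slc32a1 and 8.44% for Nxph1. Erbb4, Reln, Pvalb and Lhx6 were more variable, at 12.3%, 14.3%, 14.7% and 15.0%. Among 10339 genes with a mean of at least 10 CPM the median was 5.78%, and Lhx6, Pvalb and Reln varied more than 93.3%, 92.9% and 92.4% of them. Counting error alone would give 3.24% for Pvalb and 0.852% for Gad1.

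Over the 12 libraries 5 of the 9 genes varied together. For Gad1, Gad2, Slc32a1, Nxph1 and Lhx6, 9 of the 10 pairs were correlated over the 12 libraries after adjustment over all 36 pairs (permutation test with 100000 resamples, two-sided), and all 9 were positive in both genotypes. None of the other 26 pairs passed. The coefficient was Pearson's r of log2 CPM with a prior count of 2. The group of 5 was formed from these results. The permutation test takes the 12 libraries as independent. However, cKO and WT animals of the same number had alike levels of Gad1, Lhx6, Gad2 and Slc32a1, with r over the 6 numbers of 0.93, 0.89, 0.88 and 0.86 (exact permutation p = 0.0208, 0.00833, 0.00417 and 0.0153, unadjusted among 9 genes). With same-numbered animals taken as 6 differences of cKO minus WT, 0 of the 36 pairs passed an exact permutation test, and Gad1 with Gad2 had r = -0.09. The median r of the 36 pairs was 0.14 over these differences and 0.36 over the 12 libraries. With 6 differences a single pair alone could not pass after adjustment over 36 pairs, so the count of 0 cannot show that pairs are unrelated. The genes alike between same-numbered animals belong to the group that varied together, so they are not separate observations. The labels do not say whether a number marks animals handled together.

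**Figure D3:**
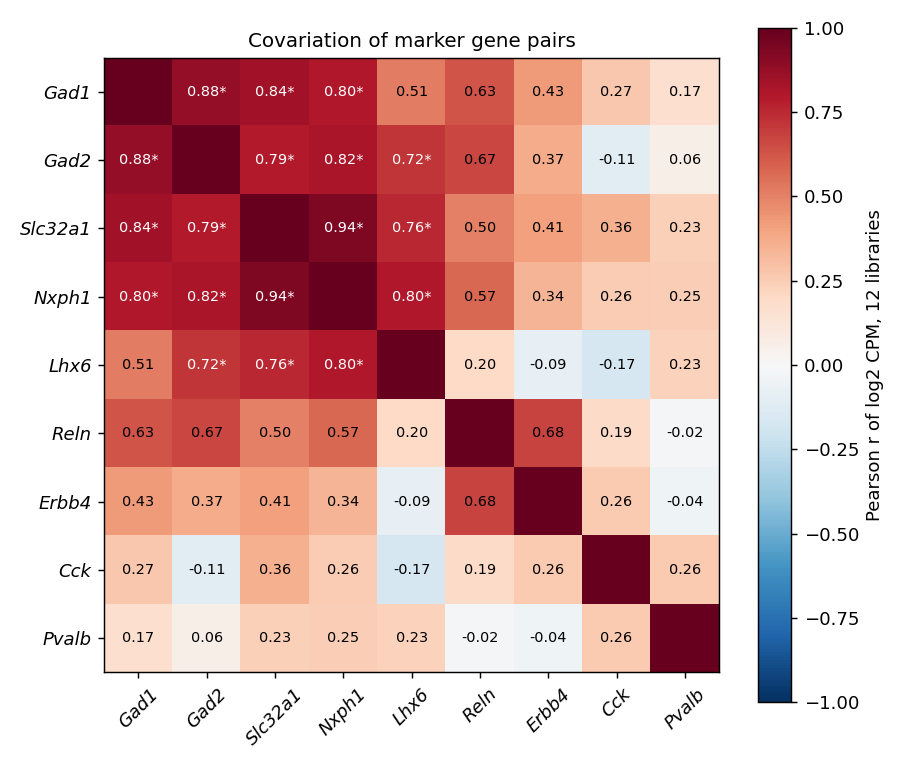
Pearson r of log2 CPM over 12 libraries for each pair of the 9 marker genes (colour, from -1 in blue to 1 in red, with the value in each cell). An asterisk marks an adjusted permutation p under 0.05 over 36 pairs, and the 9 such pairs lie among Gad1, Gad2, Slc32a1, Nxph1 and Lhx6.

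The closest pair was Slc32a1 with Nxph1, at r = 0.94 and Spearman's rho = 0.87 (adjusted permutation p = 0.00072 for r and 0.0054 for rho). It was 0.97 within the 6 cKO libraries and 0.87 within the 6 WT libraries. Nxph1 ranked 1 of 19324 genes by its r with Slc32a1, and Slc32a1 ranked 1 of 19324 by its r with Nxph1. Per kilobase of longest transcript, the Slc32a1 level was 2.45 ± 0.0598 times that of Nxph1 in cKO and 2.47 ± 0.0844 times in WT (SD, n = 6 each), and the ratio stayed between 2.34 and 2.55 in all 12 libraries. Its size depends on the lengths used. Per kilobase of all exons combined the means were farther apart, 19.0 for Slc32a1 and 4.61 for Nxph1 in cKO, and 18.7 and 4.50 in WT. Without cKO 4 and WT 4, the libraries farthest from the median of Slc32a1, r was 0.85.

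The decarboxylase pair Gad1 and Gad2 had r = 0.88 and rho = 0.89 (adjusted permutation p = 0.00072 for r and 0.00486 for rho), with r = 0.94 in cKO and 0.80 in WT. Gad2 ranked 6 of 19324 genes by its r with Gad1, and Gad1 ranked 21 of 19324 by its r with Gad2. Without the library labelled cKO 1 and WT 1, the farthest from the Gad1 median, r was 0.82. The transporter followed both enzymes, with r = 0.84 between Slc32a1 and Gad1 and 0.79 between Slc32a1 and Gad2 (adjusted permutation p = 0.00441 and 0.0137). Their rho values were 0.90 and 0.87 (adjusted permutation p = 0.00486 and 0.0054), and r without the farthest libraries was 0.76 and 0.74.

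Nxph1 was also correlated with Gad2 (r = 0.82, rho = 0.85, adjusted permutation p = 0.00576 and 0.00626) and with Gad1 (r = 0.80, rho = 0.80, adjusted permutation p = 0.00441 and 0.0172). Without the library labelled cKO 1 and WT 1, r was 0.72 for Gad2 and 0.68 for Gad1. Lhx6 was less firmly tied to the group. Among 19324 genes it ranked 258 by its r with Nxph1, 314 with Slc32a1 and 440 with Gad2. It had r = 0.80 with Nxph1, 0.76 with Slc32a1 and 0.72 with Gad2 (adjusted permutation p = 0.0164, 0.0205 and 0.0316), and r = 0.51 with Gad1, which did not pass (adjusted permutation p = 0.225). The rho values of the first 3 were 0.49, 0.64 and 0.64, none of which passed (adjusted permutation p = 0.234, 0.0978 and 0.0978). Without the 2 farthest libraries r was 0.45 with Nxph1, 0.46 with Slc32a1 and 0.56 with Gad2, and no permutation p was under 0.05, so these relations did not hold without those libraries. cKO 4 was among them for Nxph1 and Slc32a1, and the library labelled cKO 1 and WT 1 were those for Gad2. With 1 library left out at a time, the pairs with Nxph1 and Slc32a1 passed in 9 of 12 cases each and the pair with Gad2 in 6, with r from 0.58 to 0.86, 0.54 to 0.85 and 0.63 to 0.79.

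Of the 9 correlated pairs, 6 still passed without the library labelled cKO 1, 5 without cKO 4 and 6 without WT 1. Without cKO 4, WT 2 and WT 3 together, 2 of the 9 pairs passed over the remaining 9 libraries, Gad1 with Gad2 and Slc32a1 with Nxph1, while the r of the 9 pairs ranged from 0.62 to 0.91. The mean log2 CPM of Gad1, Gad2 and Slc32a1 had r = -0.68 with that of 7 choroid plexus genes, which summed to 55.8 to 5530.3 CPM in cKO and 86.2 to 8263 CPM in WT, with an adjusted permutation p of 0.15 over 11 lists of other cells and regions. The rho was -0.78, which passed with an adjusted permutation p of 0.0414. Within genotypes r was -0.74 in cKO and -0.69 in WT, and without cKO 4 and WT 2 r was -0.45. Without cKO 4, WT 2 and WT 3 together, r with these choroid plexus genes was -0.71 for Gad1, -0.74 for Gad2 and -0.76 for Slc32a1. The mean of Gad1, Gad2 and Slc32a1 also had r = -0.59 with oligodendrocyte genes and -0.53 with septal genes (adjusted permutation p = 0.256 and 0.289). Septal genes had r = -0.78 in cKO, -0.68 in WT and -0.77 without WT 2 and WT 3. The largest positive r was 0.44, with striatal genes (adjusted permutation p = 0.417). The part of choroid plexus or of these other tissues in the shared variation was not tested.

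Pvalb stood outside the group. Its r with the other 8 genes lay between -0.04 and 0.26 over the 12 libraries and no pair passed. Within cKO all 8 values were positive, from 0.52 to 0.87, whereas within WT 7 of 8 were negative, from -0.57 to 0.05. The difference between the genotypes was not tested, with 6 libraries each. WT 1, with the highest Pvalb and the lowest Gad2 of all libraries, weighed on these values. Without it r over the other 11 libraries lay between 0.14 and 0.60, and no pair passed.

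**Figure D4:**
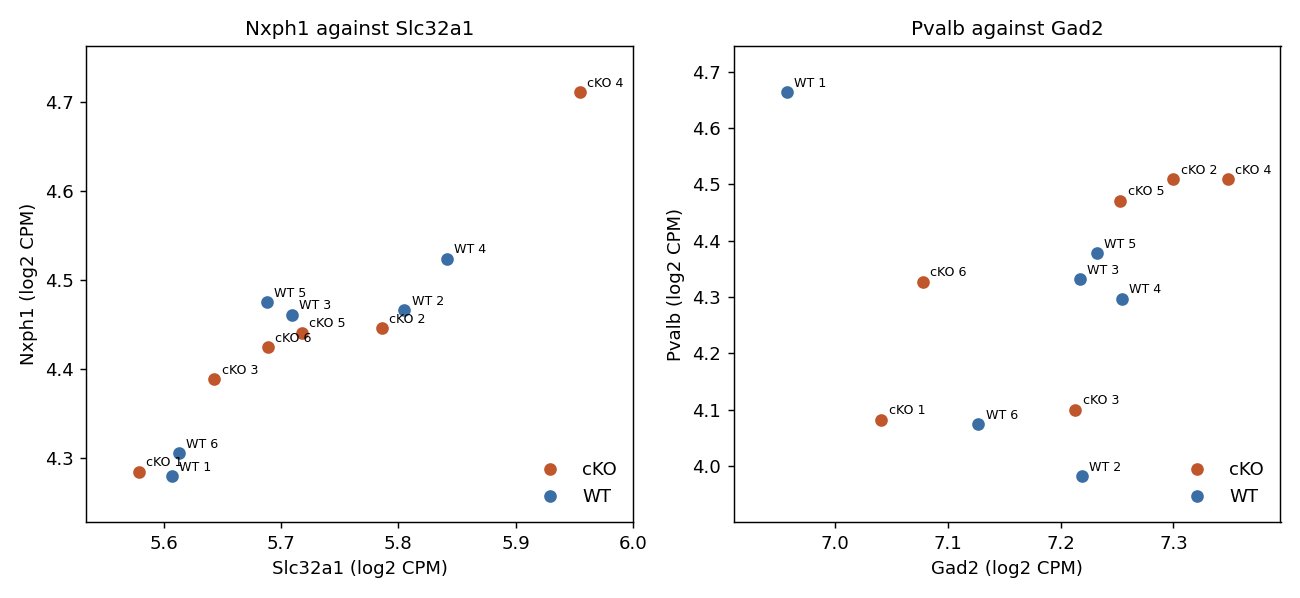
Log2 CPM of Nxph1 against Slc32a1 (left) and of Pvalb against Gad2 (right) in 6 cKO (orange) and 6 WT (blue) libraries, each point labelled by animal. The left points follow one rising line (r = 0.94), and the right points do not (r = 0.06), with WT 1 alone at the upper left.

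Reln, Erbb4 and Cck also had no pair that passed. The nearest were Reln with Erbb4 (r = 0.68, rho = 0.63) and Reln with Gad2 (r = 0.67, rho = 0.68), both with an adjusted permutation p of 0.0528 for r. With 1 library left out at a time, they passed in 3 and 2 of 12 cases. Reln also had r = 0.63 with Gad1 and 0.57 with Nxph1, above the 0.51 of Gad1 with Lhx6 inside the group of 5. Cck had r from -0.17 with Lhx6 to 0.36 with Slc32a1.

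Genes of other interneuron classes were set beside the shared level of Gad1, Gad2 and Slc32a1, as a description over the same 12 libraries. Of 41 such genes in 3 lists, 20 had r of at least 0.5 with it (48.8%), beside 12.6% of all 19322 other genes tested. Among markers of interneurons from the medial ganglionic eminence it was 9 of 14, with Kcnc1, a fast potassium channel, at 0.78, Npy, the neuropeptide Y gene, at 0.77 and Sst, the somatostatin gene, at 0.68. Among markers from the caudal eminence it was 5 of 13, with the cannabinoid receptor gene Cnr1 at 0.75, and among interneuron transcription factors 6 of 14. Below 0 were 6 of the 41, 2 in each list, beside 9617 of the 19322 other genes tested. The lowest of each list were Maf, a transcription factor of the medial lineage, at -0.48, Pthlh (medial) at -0.30 and Sncg (caudal) at -0.31. The points share library, depth and tissue makeup, and the lists were written with earlier results of these data known.

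The 5 genes with a mean of at least 1 CPM most like the shared level were Prune2 (r = 0.94), E430024P14Rik (0.91), Itih3 (0.91), Sorcs3 (0.91) and Sv2a (0.90), among 15536 genes over 12 libraries. The genes most like single markers were Prune2, Bcat1 and Sorcs3 for Gad1 and Gas7, E430024P14Rik and Prune2 for Gad2. For Slc32a1 they were Pde9a, Eno2 and Gm30238, for Nxph1 Cadm1, Cdh13 and Vstm5, and for Lhx6 Timp2, Baiap3 and Sema4g. For Pvalb they were Tecr, Cd164l2 and Coro6, for Cck Rtca, Tuba4a and 2900041M22Rik, for Reln Pde10a, Hdgfl3 and Ntrk2, and for Erbb4 Hdx, Phf14 and Gm37776. Their r ranged from 0.87 to 0.96.

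No gene of the wider interneuron and ligand-receptor lists passed the genotype test. In 8 lists with 66 genes, 65 were tested and edgeR called 0, with 7 at an unadjusted p under 0.05 (10.8%, beside 9.54% of all genes), 4 of them higher and 3 lower in cKO. The smallest adjusted p was 0.394. DESeq2 and limma-voom called 0 of the 9 markers, and DESeq2 called 76 genes in all.

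Among 14 interneuron transcription factors 10 had a positive and 4 a negative log2 fold change, with a median of 0.08. Nr2f2, a nuclear receptor of caudal-lineage interneurons, averaged 40.7 ± 8.88 CPM in cKO and 31.9 ± 5.21 CPM in WT (SD, n = 6 each). Its difference was 0.35 ± 0.14 on the log2 scale (SE, edgeR adjusted p = 0.454). Maf had 0.19 ± 0.07 (adjusted p = 0.435), Npas1 0.14 ± 0.08 (0.597) and Dlx5 0.21 ± 0.12 (0.613) in edgeR.

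Of 14 markers of medial-eminence interneurons 9 had a positive log2 fold change, with a median of 0.05. Chrna2, a nicotinic receptor subunit of a somatostatin cell class, had -0.48 ± 0.20 (SE, edgeR adjusted p = 0.480) at a mean under 1 CPM. Tac1, Pthlh and Crhbp had 0.38, 0.28 and 0.12 with edgeR adjusted p of 0.612, 0.623 and 0.725. Of 13 caudal-eminence markers 9 were positive, with a median of 0.04. Pnoc, the nociceptin precursor, had 0.24 ± 0.11, Sncg 0.27 ± 0.13, Adarb2 -0.17 ± 0.08 and Calb2, the calretinin gene, 0.32 ± 0.19, with edgeR adjusted p of 0.520, 0.543, 0.543 and 0.628.

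GABA uptake and breakdown genes had 4 positive values among 5, with a median of 0.04. Slc6a13, Abat and Slc6a11 had log2 fold changes of 0.37, 0.04 and 0.04 (edgeR adjusted p = 0.618, 0.753 and 0.916).

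Neuregulins, the ligands of Erbb4, and the other ErbB receptors had 6 negative values among 7, with a median of -0.07. Nrg1 had -0.24 ± 0.14 (SE), Egfr -0.08 ± 0.05, Erbb2 0.14 ± 0.10 and Nrg4 -0.33 ± 0.24, with edgeR adjusted p of 0.630, 0.669, 0.698 and 0.706. Reelin receptor and adaptor genes had 3 positive and 2 negative values, with a median of 0.02. Crkl, an adaptor downstream of Dab1, averaged 58.9 ± 2.21 CPM in cKO and 55.5 ± 0.958 CPM in WT (SD, n = 6 each), which is 0.09 ± 0.03 on the log2 scale (SE, edgeR adjusted p = 0.394). The reelin receptor genes Vldlr and Lrp8 had -0.08 ± 0.05 and 0.02 ± 0.04, and the adaptor genes Crk and Dab1 had 0.03 ± 0.03 and -0.04 ± 0.03.

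Neurexins bind neurexophilins at the surface of nerve endings, and 4 of these 6 genes had positive values with a median of 0.09. Nrxn3 had a log2 fold change of -0.12 ± 0.05 (SE, adjusted p = 0.451 in edgeR), and Nxph2 and Nxph4 had 0.16 ± 0.17 and 0.24 ± 0.26. The cholecystokinin receptor gene Cckbr had -0.16 ± 0.26, and Cckar was too low to test.

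Of 74 tested markers of other cells and regions in 11 lists, edgeR called 0, beside 0.0103% of all genes. At an unadjusted p under 0.05 there were 2 higher and 2 lower in cKO, a level that 9.54% of all genes reached. The excitatory neuron marker Camk2a averaged 4392 ± 325 CPM in cKO and 4600.5 ± 170 CPM in WT (SD, n = 6 each). Striatal genes, a region whose principal cells also express Gad1 and Gad2, summed to 274 to 381 CPM in cKO and 270 to 302 CPM in WT over 11 genes, with none at 0 in every library. Septal genes summed to 77.1 to 91.5 CPM in cKO and 64.5 to 88.5 CPM in WT over 7 genes. Thalamic genes summed to 135 to 171 CPM in cKO and 128 to 165 CPM in WT over 9 genes. Neocortical genes summed to 299 to 346 CPM in cKO and 310 to 365 CPM in WT over 8 genes. A few genes gave much of these sums. Bcl11b of the neocortical list averaged 170 CPM in cKO and 184 CPM in WT. Trpc4 of the septal list averaged 45.1 and 44.5 CPM, and Pde10a of the striatal list 85.4 and 91.7 CPM. Whether the sums reflect tissue of these regions was not tested. Cajal-Retzius genes summed to 40.6 to 51.8 CPM in cKO and 37.1 to 48.9 CPM in WT over 5 genes, of which Cacna2d2, a calcium channel subunit also used by interneurons, gave most. Their part in the Reln values was not tested. None of 99 correlations between a marker gene and one of these lists passed adjustment by r. By rho 1 did, Nxph1 with choroid plexus genes (rho = -0.88, adjusted permutation p = 0.0366). The strongest r values were -0.75 for Slc32a1 and -0.73 for Nxph1 with choroid plexus genes (adjusted permutation p = 0.314 each) and 0.70 for Pvalb with neocortical genes (adjusted permutation p = 0.357).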

How the data were processed

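RNA from bulk hippocampus of 6 cKO and 6 WT male mice was extracted with Trizol and chloroform and made into libraries with a NEB Next Ultra kit, per the labels' protocols. The authors deposited expected counts per gene symbol, 1 column per animal and not scaled between libraries. Salmon 1.3.0 and GRCm38 are named in the submitters' processing notes. The sources used here do not give the annotation, strand setting or step from transcripts to genes. Values were rounded, since 24.8% to 25.9% per library were fractional. Exons of Slc32a1 and Reln overlap an antisense gene, and those of Lhx6 a small RNA gene on its own strand, each at under 1 count per library on average.

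Genotypes were compared with edgeR 4.0.16 in R 4.3.3 (glmQLFit, TMM scaling, filterByExpr with a minimum count of 10 and a total of 15, genotype alone), adjusted by Benjamini-Hochberg over all genes with a threshold of 0.05. Alternatives used DESeq2 1.42.0 and limma-voom (3.58.1), other scalings, filters, left-out libraries and animal number as a block. Coordinates and lengths came from GENCODE M21. Within a genotype the chi-square per degree of freedom between libraries was at least 7.93, above counting noise. Labels name each sample as a separate animal, so p-values reflect differences from animal to animal.

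The 9 genes and all lists were chosen with earlier results of these data known. Named genes were the 9 markers, up to 4 genes with the smallest p of each interneuron or ligand-receptor list, and genes most like the markers by r. In the lists of other cells the genes with the highest mean were to be named too, and of these only the ones that bear on a marker are given. Some genes that the rule names are not reported here. Kcnc1, Npy, Sst and Cnr1, named for their r with the GABA genes, were chosen after their values were seen. So were Maf, Pthlh and Sncg in that place, Cckar, and the group of 5 genes that varied together. The comparison of each marker with the lists of other cells was also added then.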

Additional observations from a re-analysis of the deposited data

Results flagged for a closer look

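By Dixon's criterion for a highest or lowest value among 6, a library stood far from the rest of its genotype in 5 of 56 groups checked, where chance gives about 1 in 20 groups. Among the 9 markers this held in 1 of 18 groups, Nxph1 in cKO 4 at 26.1 CPM, where the next highest cKO library had 21.7 CPM. In WT 1 the summed markers of medial-eminence interneurons were at 694 CPM, with 786 CPM in the next library, and the same library had the lowest Gad2 and the highest Pvalb. In WT 5 the neuregulin and ErbB genes summed to 89.0 CPM, with 83.3 CPM next. In cKO 5 the striatal genes summed to 381 CPM, with 290 CPM next, and the thalamic genes to 171 CPM, with 143 CPM next. cKO 5 also had the highest Reln of the cKO libraries, at 95.2 CPM, and the part of these regions in that value was not tested.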

How the results depend on the processing

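None of the 9 marker genes passed under any of 21 alternatives, with a smallest adjusted p of 0.265 (Erbb4 without WT 1, edgeR). With 1 library left out, some had an unadjusted p under 0.05 in edgeR. They were Lhx6 without cKO 1 (0.0337), Reln without WT 1 (0.0373), and Erbb4 without WT 1 (0.0228), WT 3 (0.0481) or cKO 2 (0.0481). Over all genes 1257 (without WT 5) to 2799 (without WT 1) reached that level. Lhx6, Cck, Reln and Erbb4 kept their sign throughout. In the other 5 the sign of the log2 fold change turned. That of Gad1 was -0.00476, -0.00612 and -0.00728 without cKO 2, 4 and 5, and -0.0127 and -0.00998 without WT 1 and WT 6 (range with 1 library left out -0.0127 to 0.0322). Gad2 was -0.00752 without WT 1 (to 0.0617). Slc32a1 was -0.0287 without cKO 4, and -0.00697 and -0.00756 without WT 1 and WT 6 (to 0.0410). Pvalb was -0.00415 without cKO 2, and -0.0242 and -0.0119 without WT 2 and WT 6 (to 0.116). Nxph1 was -0.0233 without cKO 4 (to 0.0575). Without cKO 4, WT 2 and WT 3 together, Slc32a1 was -0.00594, Pvalb -0.0607 and Nxph1 -0.00205. Over all genes DESeq2 called 76, limma-voom 0 (1847 at an unadjusted p under 0.05), edgeR with no filter 1, with the 1 CPM filter 1, and without cKO 4, WT 2 and WT 3 it called 0 (1457 at an unadjusted p under 0.05). Leaving out 1 library gave 0 to 6, the most without the library labelled cKO 1. The cause was not tested.

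Correlated pairs numbered 5 to 10 with 1 library left out and 2 without cKO 4, WT 2 and WT 3, where fewer libraries remain. Against the marker lists, rank correlation passed 1 list, choroid plexus, in place of 0.

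Over all genes, sharing an animal number did not make libraries alike. Deviations of same-numbered cKO and WT animals correlated between -0.266 and 0.250 over all genes, with 2 of 6 above 0.1, and 1 of 6 cKO and 1 of 6 WT libraries correlated best with its own number. With animal number as a replicate block edgeR called 0 genes (1724 at an unadjusted p under 0.05) and 0 markers, with Lhx6 and Erbb4 at an unadjusted p under 0.05. The marker pairs, taken as 6 differences, had 0 that passed, with r = -0.09 for Gad1 and Gad2. A single pair alone could not pass that test after adjustment, so the count of 0 decides little. Same-numbered animals were nevertheless alike in 4 markers, as given with the pairs, and had r = -0.60 for Pvalb (exact permutation p = 0.210). An r as high as that of Gad1, Lhx6, Gad2 or Slc32a1 was found in 0.357%, 0.911%, 1.01% and 1.38% of all genes. The median r over all genes was 0.05. These 4 markers belong to the group that varied together, so they are not separate observations. Whether the number marks a shared dissection or extraction was not tested. Pvalb had the fewest counts, 660 in its lowest library, with a counting error of 3.24% beside a coefficient of variation of 14.7%.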
